A study of Mus musculus with 6 samples.

Results

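Interferon receptors and response genes are the genes through which a cell senses interferon and the antiviral genes that interferon induces. A list of 39 such genes, from receptor chains to effectors, was looked up by symbol among the 24982 genes listed in each RNA-seq library, and all 39 were found. Type I interferons are secreted by cells that detect foreign nucleic acid and interferon gamma mainly by lymphocytes, and both act through Janus kinases and STAT and IRF transcription factors. Type I interferons bind *Ifnar1* and *Ifnar2*, and interferon gamma binds *Ifngr1* and *Ifngr2*. Keratinocytes, as the outer barrier of the skin, carry these receptors and can answer with antiviral proteins that degrade RNA, block translation or trap virions.

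The study compared untreated keratinocyte lines of C57BL/6 mice, both from neonatal skin. The KSFM-Ca2+ cells were derived and kept in low-calcium KSFM-Ca2+ medium, and the DKSFM cells descend from them and had adapted to DKSFM, so that line and medium cannot be told apart. Each line had 3 libraries, with a total coverage of 1601676, 1238411 and 1057750 in KSFM-Ca2+ replicates 1 to 3 and 1174348, 1239438 and 1170675 in DKSFM replicates 1 to 3. The labels do not state whether replicates were separate cultures, and the paper speaks of biological samples without saying what the replicates of these libraries were, so p-values measure only the spread between these samples, which may be technical.

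Levels are given as normalized coverage, the mean number of reads over a base of the gene after scaling between libraries, as mean ± SD of 3 libraries. The files list coverage in steps of 0.1, which limits what can be said of weak genes. Changes are log2 fold changes of DKSFM over KSFM-Ca2+ on the log2(value + 0.1) scale, tested with limma over 12472 genes, and a gene is called at an adjusted p under 0.01 and a fold of at least 2. This scale understates the change of genes with low coverage. In bulk samples, fewer cells that express a gene and less RNA per cell cannot be told apart.

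Most of the changed response genes were lower in the DKSFM cells. Of the 39 genes, 28 had enough coverage to be tested. Among these, 10 were called lower in DKSFM (10.6% of all tested genes were) and 1 was called higher (13.2% of all tested genes were). Another 7 passed the adjusted p with less than a 2-fold change, 4 of them lower and 3 higher in DKSFM, which brought the genes past it to 18 of 28, against 72.4% of all tested genes. The libraries of the lines did not overlap in 24 of the 28, against 83.1% of all tested genes. On the log2 scale the 28 genes changed by a median of -0.42, against -0.0044 for the whole set tested. The median depended on which weak genes were tested, and was -0.17 when every library had to reach the minimum, -0.21 with no minimum and -0.12 with only the 4 libraries marked as combined by the authors, KSFM-Ca2+ replicate 3 and the 3 DKSFM libraries. In that set the single KSFM-Ca2+ library is assumed to vary like the DKSFM libraries, and a gene had to reach the minimum in a DKSFM library to be tested. The genes that were called lower were *Irf1*, *Irf7*, *Zbp1*, *Oas3*, *Oasl2*, *Usp18*, *Gbp2*, *Gbp3*, *Parp14* and *Xaf1*, and the gene called higher was *Ifit2*. Of the 10 called lower, 9 had less than 10 as their mean normalized coverage in KSFM-Ca2+ cells, and *Irf1* had more. Some of the weak genes reached the minimum for testing only in the line where they were high and so had to differ, among them *Zbp1*, *Oas3*, *Oasl2* and *Parp14*. When every library had to reach it, these 4 and *Ifit2* were not tested. With treat, which asks for more than a 2-fold change, *Irf1*, *Gbp2*, *Zbp1* and *Parp14* were called lower, the last 2 of them genes that had to differ.

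Levels spread widely over the list. A mean normalized coverage of at least 10 in both lines was found in 14 genes, of which *Irf1* alone was called. At the other end, 13 genes were listed under 1 in every library. The 11 genes that were not tested, *Dhx58*, *Oas1a*, *Oas2*, *Oasl1*, *Ifit1*, *Ifit3*, *Mx1*, *Mx2*, *Rsad2*, *Cmpk2* and *Ifi44*, were never listed above 0.7. Several of these, such as *Mx1*, *Rsad2* and *Ifit1*, are known for their strong induction by type I interferon.

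**Figure D1:**
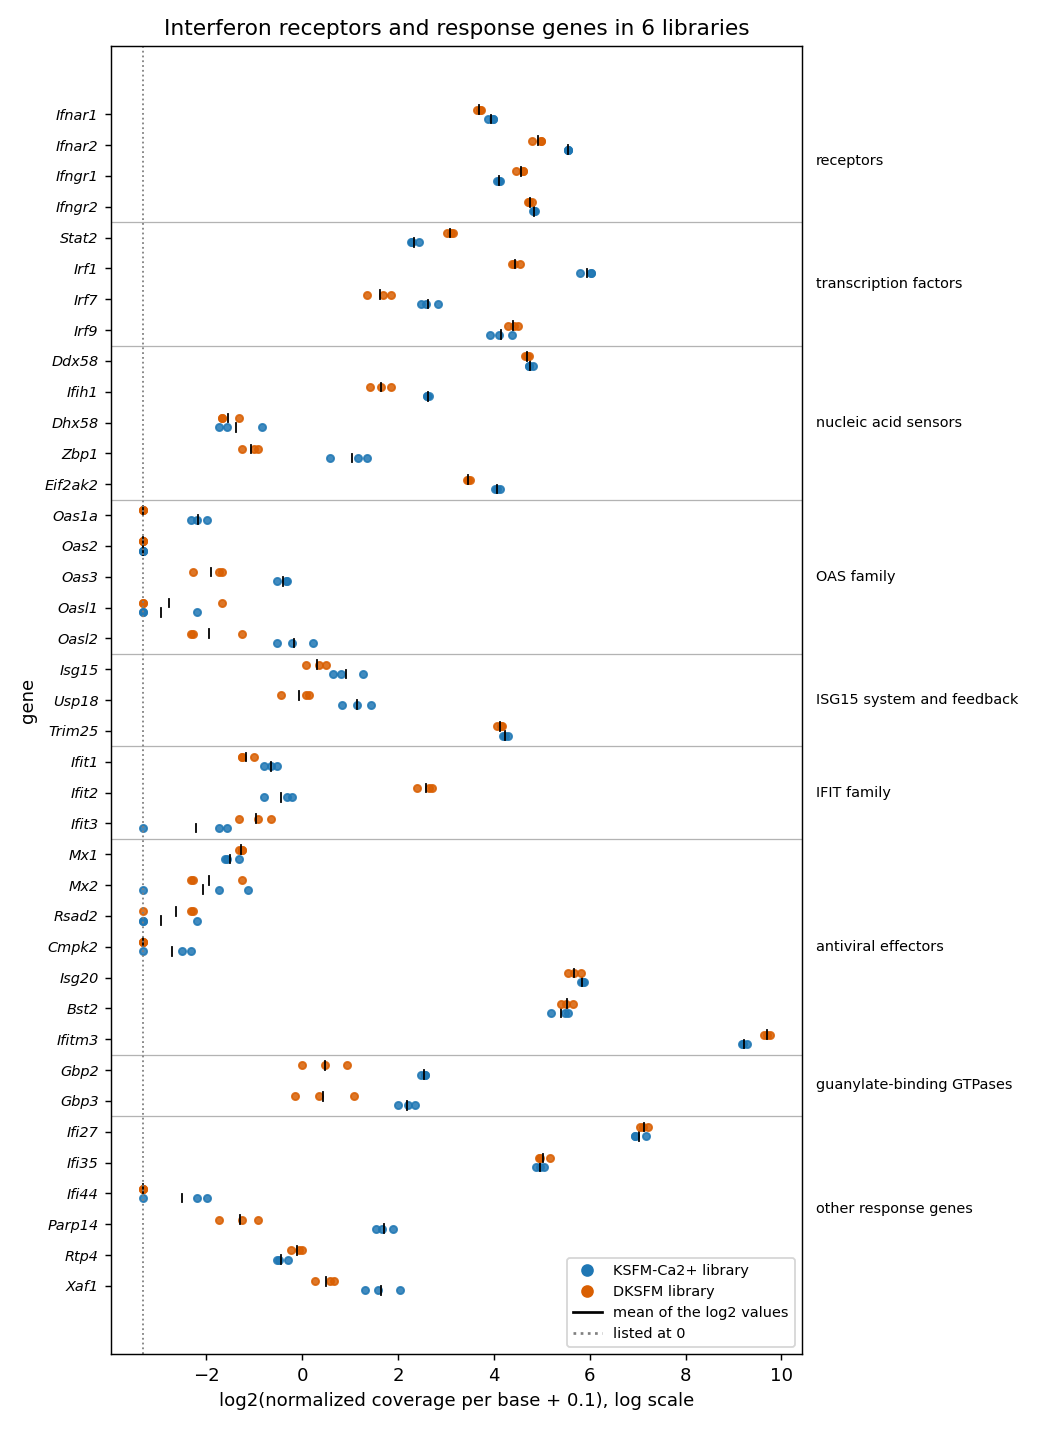
Normalized coverage of the 39 genes in each of 6 libraries, as log2(coverage per base + 0.1) on the horizontal axis, with genes in rows ordered by role. Points are libraries (blue KSFM-Ca2+, orange DKSFM), black ticks the mean of the log2 values, and the dotted line marks genes listed at 0. *Ifitm3* has the highest coverage, *Ifit2* is higher in all 3 DKSFM libraries, and the weak genes sit near the dotted line.

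All 4 receptor chains were well covered and none changed by 2-fold. *Ifnar2* (chromosome 16 from 91372783 to 91405589, in GRCm38 as are all gene positions), the ligand-binding chain of the type I receptor, had the highest coverage of the 4. Its normalized coverage was 46.6, 46.8 and 46.8 in KSFM-Ca2+ replicates 1 to 3 and 31.5, 27.5 and 31.4 in DKSFM replicates 1 to 3. The KSFM-Ca2+ libraries were all higher, with no overlap (log2 fold change -0.63, SE 0.06, limma adjusted p = 1.4e-05). *Ifnar1*, its partner chain, was also lower in DKSFM (15.3 ± 0.623 against 12.9 ± 0.342, log2 fold change -0.24, SE 0.06, limma adjusted p = 0.00387). The limma adjusted p of *Ifnar1* was 0.0172 and 0.0190 without KSFM-Ca2+ replicates 1 and 2, and 0.0119 and 0.0144 without DKSFM replicates 1 and 2. It ran from 0.00324 to 0.0999 over 17 alternatives. *Ifngr1*, the ligand-binding chain for interferon gamma, went the other way, from 17 ± 0.370 to 23.5 ± 1.25 (log2 fold change 0.46, SE 0.05, limma adjusted p = 7.69e-05). *Ifngr2* had 28.5 ± 0.285 and 26.9 ± 0.837 and did not pass the test (limma adjusted p = 0.109). The genes *Ifnar1*, *Ifnar2* and *Ifngr2* lie close together on chromosome 16. The 61 tested genes within 10 Mb of them changed by a median of 0.10 on the log2 scale after the median of all tested genes was taken off.

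The transcription factors divided. *Irf1* (chromosome 11 from 53770014 to 53778374), an activator of interferon gamma target genes, was the best covered of the 4. It had a normalized coverage of 64.7, 65.1 and 55.8 in KSFM-Ca2+ replicates 1 to 3 and 20.7, 21.4 and 23.1 in DKSFM replicates 1 to 3. Every KSFM-Ca2+ library lay far above every DKSFM library (log2 fold change -1.5, SE 0.07, limma adjusted p = 2.95e-07). *Irf7* (chromosome 7 from 141262706 to 141266481), which amplifies type I interferon production, had 5.46, 5.91 and 7.03 in the KSFM-Ca2+ libraries and 2.46, 3.53 and 3.10 in the DKSFM libraries. The lines did not overlap, and the fold stood at the threshold (log2 fold change -1.0, SE 0.15, limma adjusted p = 3.53e-04). The 2-fold call of *Irf7* was lost without KSFM-Ca2+ replicate 3 (-0.90), without DKSFM replicate 1 (-0.86), with size factors from relative log expression (-0.99) and with pseudocounts of 0.5 and 1 (-0.92 and -0.83). *Stat2*, which joins *Irf9* in the complex that drives type I response genes, rose from 4.95 ± 0.310 to 8.45 ± 0.379 (log2 fold change 0.76, SE 0.08, limma adjusted p = 3.61e-05). *Irf9* itself overlapped between the lines, with 17.7 ± 2.91 and 21.2 ± 1.62 (log2 fold change 0.27, SE 0.11, limma adjusted p = 0.0611). Without KSFM-Ca2+ replicate 3 its log2 fold change was 0.39 and its limma adjusted p 0.00529, and the p-values over 17 alternatives ran to 0.852.

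Of the 5 nucleic acid sensors, the best covered did not pass the test and 3 were lower in DKSFM. *Ddx58* (chromosome 4 from 40203773 to 40239828), which encodes the RNA sensor RIG-I, had a normalized coverage of 27.9, 26.5 and 26.5 in KSFM-Ca2+ replicates 1 to 3 and 25.6, 25.2 and 26.4 in DKSFM replicates 1 to 3. The KSFM-Ca2+ values lay just above the DKSFM values, and the test was not passed (log2 fold change -0.07, 95% interval -0.17 to 0.04, limma adjusted p = 0.198). *Zbp1* (chromosome 2 from 173206612 to 173218923), a sensor of left-handed double-stranded nucleic acid that can start cell death, had 2.46, 1.40 and 2.15 in the KSFM-Ca2+ libraries and 0.427, 0.403 and 0.321 in the DKSFM libraries. All 3 KSFM-Ca2+ libraries were higher, although they varied among themselves (log2 fold change -2.09, SE 0.24, limma adjusted p = 6.03e-05). With a pseudocount of 1 in place of 0.1 its log2 fold change was -1.10. *Zbp1* reached the minimum for testing only in KSFM-Ca2+ and so had to differ. *Ifih1*, which encodes the sensor MDA5, had 6.07 ± 0.112 and 3.04 ± 0.484, a change just under the threshold of 2-fold (log2 fold change -0.99, SE 0.12, limma adjusted p = 9.99e-05). It crossed that threshold without DKSFM replicate 3 (-1.10) and with only the libraries marked as combined (-1.01). *Eif2ak2*, which encodes the translation-blocking kinase PKR, had 16.7 ± 0.624 and 11 ± 0.239 (log2 fold change -0.60, SE 0.06, limma adjusted p = 1.65e-05). *Dhx58*, the related helicase LGP2, was listed at 0.6, 0.2 and 0.2 in KSFM-Ca2+ and 0.2, 0.3 and 0.2 in DKSFM and was not tested.

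**Figure D2:**
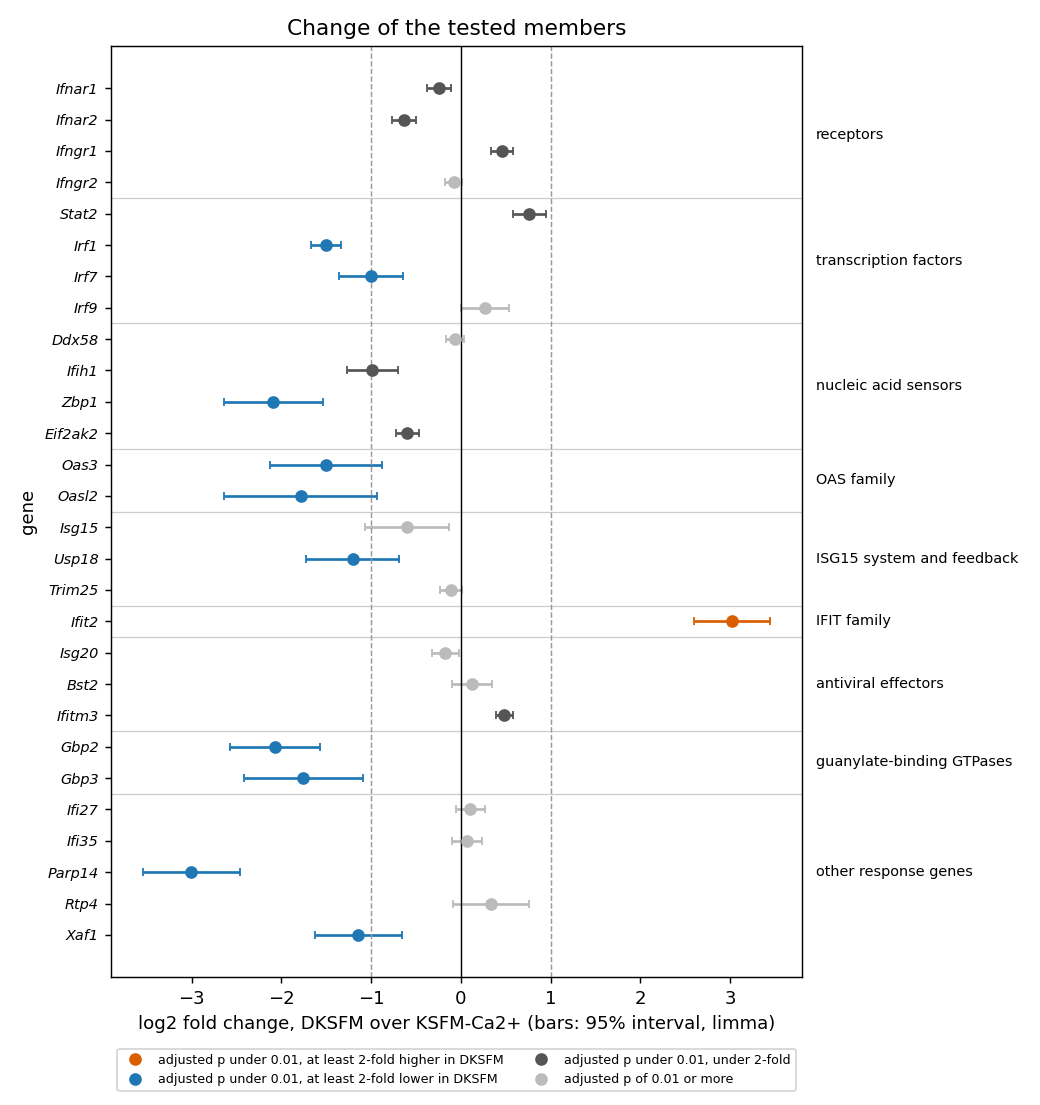
Log2 fold change of DKSFM over KSFM-Ca2+ (horizontal axis) for the 28 tested genes, in rows by role, with 95% intervals from limma and dashed lines at 2-fold. Blue genes were called lower and orange genes higher in DKSFM, dark grey genes passed the adjusted p under 2-fold, and light grey genes did not pass. *Parp14* lies lowest at -3.0 and *Ifit2* highest at 3.02.

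The 2'-5' oligoadenylate synthetase genes, whose products activate an RNase against viral RNA, were weak in both lines. Their best covered members, *Oas3* and *Oasl2*, were lower in DKSFM, but reached the minimum for testing only in KSFM-Ca2+ and so had to differ. *Oas3* (chromosome 5 from 120753098 to 120777661) was listed, after scaling, at 0.693, 0.701 and 0.596 in KSFM-Ca2+ replicates 1 to 3 and 0.107, 0.201 and 0.214 in DKSFM replicates 1 to 3. The lines were apart, with the DKSFM libraries 1 or 2 rounding steps above 0 (log2 fold change -1.5, SE 0.27, limma adjusted p = 9.62e-04). *Oasl2* (chromosome 5 from 114896936 to 114912234), a family member with ubiquitin-like domains, had 0.770, 0.601 and 1.07 in the KSFM-Ca2+ libraries and 0.107, 0.101 and 0.321 in the DKSFM libraries. Its lines did not overlap either (log2 fold change -1.78, SE 0.37, limma adjusted p = 0.00211). Without KSFM-Ca2+ replicate 3 the limma adjusted p of *Oasl2* was 0.0115, the highest over 15 alternatives, and the lowest was 6.16e-04. With a pseudocount of 0.5 both genes changed by less than 2-fold (-0.79 for *Oas3* and -0.96 for *Oasl2*), and with 1 by -0.50 and -0.62. For 85-base reads and the median length of the annotated transcripts, a step of 0.1 corresponds to 2.70 reads in *Oas3* and 0.979 reads in *Oasl2*. That median is over all GENCODE transcripts of a gene, while the authors used RefSeq genes, so these figures are rough. *Oas1a* was listed at 0.2, 0.1 and 0.1 in KSFM-Ca2+ and at 0 in all DKSFM libraries, *Oasl1* at 0.1 or 0 in all but DKSFM replicate 1, which had 0.2, and *Oas2* at 0 throughout. Reads of *Oas1a* can be shared with close copies such as *Oas1g*, so its values are uncertain.

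In the ISG15 system, the feedback gene fell and the others did not pass the test. *Trim25* (chromosome 11 from 88999376 to 89020293), a ubiquitin ligase of the RIG-I pathway, had a normalized coverage of 19.6, 18.2 and 18.7 in KSFM-Ca2+ replicates 1 to 3 and 17.8, 16.7 and 17.8 in DKSFM replicates 1 to 3. The KSFM-Ca2+ libraries were a little higher, and the test was not passed (log2 fold change -0.11, 95% interval -0.24 to 0.01, limma adjusted p = 0.0852). *Usp18* (chromosome 6 from 121245906 to 121270917), which removes ISG15 from proteins and dampens the type I receptor, had 1.69, 2.10 and 2.62 in the KSFM-Ca2+ libraries and 0.962, 1.01 and 0.642 in the DKSFM libraries. The lines did not overlap (log2 fold change -1.21, SE 0.22, limma adjusted p = 0.00112). Pseudocounts of 0.5 and 1 brought *Usp18* under 2-fold (-0.94 and -0.74). *Isg15*, the ubiquitin-like protein gene itself, had 1.81 ± 0.438 and 1.15 ± 0.176 and did not pass the test (log2 fold change -0.60, SE 0.20, limma adjusted p = 0.0243).

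*Ifit2* was the only gene of the 39 called higher in DKSFM. It lies on chromosome 19 from 34550694 to 34576419 and encodes a protein with tetratricopeptide repeats that binds viral RNA. Its normalized coverage was 0.770, 0.701 and 0.477 in KSFM-Ca2+ replicates 1 to 3 and 6.20, 6.45 and 5.14 in DKSFM replicates 1 to 3. Each DKSFM library was far above each KSFM-Ca2+ library (log2 fold change 3.02, SE 0.18, limma adjusted p = 1.31e-06). Its relatives in the same gene cluster were weak in both lines. *Ifit1* was listed at 0.7, 0.6 and 0.4 in KSFM-Ca2+ and 0.3, 0.4 and 0.3 in DKSFM. *Ifit3* was listed at 0, 0.2 and 0.2 in KSFM-Ca2+ and 0.5, 0.3 and 0.4 in DKSFM, and its reads can be shared with its near-identical copy *Ifit3b*. The 108 tested genes within 10 Mb of *Ifit2* had a median of -0.15 on the log2 scale, again after the median of all tested genes was taken off.

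The promoters of the IFIT genes differed in the letters searched for. In RefSeq windows of 300 bases around gene starts (GRCm38.p6), most of each lying before the start, both strands were searched for the core of the interferon-stimulated response element, GAAANNGAAA, and for the gamma-activated site, TTCNNNGAA. The 2 motifs can share bases. Sites of the IFIT genes are shown because *Ifit2* was called higher in DKSFM and its relatives were too weak to be tested. *Ifit3*, though weak, was also listed higher in every DKSFM library than in any KSFM-Ca2+ library. Sites of *Irf1*, *Oas3*, *Gbp2* and *Gbp3* are shown because these genes were called lower. *Gbp3* held a second core that overlaps the site shown. Capitals mark the motif, which reads as its reverse complement where the element is on the other strand, and the flanks are in lower case.
Ifit1 chr19:34640775-34640804 (+ strand): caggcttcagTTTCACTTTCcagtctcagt
Ifit1 chr19:34640794-34640823 (+ strand): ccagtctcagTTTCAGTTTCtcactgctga
Ifit3 chr19:34583363-34583392 (+ strand): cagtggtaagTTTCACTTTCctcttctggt
Ifit3 chr19:34583397-34583426 (+ strand): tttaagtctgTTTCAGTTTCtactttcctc
Ifit2 chr19:34550444-34550471 (+ strand): catgggagcTTCCTGGAAgaatggataa
Irf1 chr11:53769914-53769942 (+ strand): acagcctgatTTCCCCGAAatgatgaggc
Oas3 chr5:120777715-120777744 (- strand): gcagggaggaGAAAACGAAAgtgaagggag
Gbp2 chr3:142620594-142620623 (+ strand): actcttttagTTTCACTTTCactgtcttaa
Gbp3 chr3:142559989-142560018 (+ strand): caggacacagTTTCAGTTTCtatttcccag
*Ifit1* and *Ifit3* each held the response element core at 2 places before the start, and neither of the 2 windows of *Ifit2* held it. The *Ifit2* match was to the gamma-activated site, at positions -241 to -233 from the start. The genes matched to no window were *Dhx58*, *Zbp1*, *Oas2*, *Usp18*, *Mx1*, *Mx2*, *Ifi27*, *Parp14* and *Rtp4*. Of the 30 with a window, 14 held the response element core (46.7%). It was held by 3.99% of all 27025 genes with a window, 3.51% of the tested genes with a window and 3.44% of all 32851 windows. The gamma-activated site was held by 10 of the 30 (33.3%), against 9.55% of all genes, 8.24% of the tested genes and 8.30% of all windows. The response element core was held by 3 of 7 genes called lower, 4 of 7 past the adjusted p under 2-fold, 3 of 8 that did not pass and 4 of 7 not tested. For the gamma-activated site these were 1 of 7, 4 of 7, 3 of 8 and 1 of 7. A match describes these letters only, and no match says only that they are not in the window.

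Among the antiviral effectors, *Ifitm3* dominated. *Ifitm3* (chromosome 7 from 141009586 to 141010770), which blocks virus entry from endosomes, had a normalized coverage of 586, 577 and 624 in KSFM-Ca2+ replicates 1 to 3 and 798, 872 and 833 in DKSFM replicates 1 to 3. All DKSFM libraries were higher, by less than 2-fold (log2 fold change 0.48, SE 0.04, limma adjusted p = 1.2e-05). Among the 39 genes it had the highest mean coverage per base in both lines. Reads can be shared with other *Ifitm* genes, and *Ifitm2*, its neighbour, had 208 ± 5.39 and 303 ± 3.67. *Bst2*, which tethers budding virions, had 42.4 ± 5.20 and 46.0 ± 4.02 and overlapped between the lines, and *Isg20*, an exonuclease gene, had 57.5 ± 1.14 and 51.2 ± 4.87. Neither passed the test (limma adjusted p = 0.276 and 0.038), though *Isg20* did without DKSFM replicate 3 (log2 fold change -0.24, limma adjusted p = 0.00414, with values to 0.254 over 17 alternatives). *Mx1*, *Mx2*, *Rsad2* and *Cmpk2* were listed between 0 and 0.3 in all libraries and were not tested. Reads of *Mx1* and *Mx2* can be split between these related genes.

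Both guanylate-binding GTPase genes of the list, which are known as strong interferon gamma targets, were lower in DKSFM. *Gbp2* (chromosome 3 from 142620602 to 142638008) was listed, after scaling, at 5.85, 5.51 and 5.84 in KSFM-Ca2+ replicates 1 to 3 and 1.82, 0.907 and 1.28 in DKSFM replicates 1 to 3. The KSFM-Ca2+ libraries were close together and the DKSFM libraries well below (log2 fold change -2.07, SE 0.22, limma adjusted p = 3.42e-05). *Gbp3* (chromosome 3 from 142560026 to 142573209) had 3.92, 4.51 and 5.01 in the KSFM-Ca2+ libraries and 2.03, 0.806 and 1.18 in the DKSFM libraries. Its lines were apart too (log2 fold change -1.75, SE 0.28, limma adjusted p = 5.31e-04). The call of *Gbp3* was lost with treat, where its adjusted p for a change of more than 2-fold was 0.0833, and its limma adjusted p ran from 7.44e-05 to 0.007 over the 17 other alternatives. These neighbours are similar in sequence and can share reads, so their 2 changes may not be separate measurements. The 60 tested genes within 10 Mb had a median of 0.19 on the same scale, opposite in sign to both.

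Of the 6 other response genes, *Parp14* showed the largest fall of the list. It reached the minimum for testing only in KSFM-Ca2+ and so had to differ. *Parp14* (chromosome 16 from 35832874 to 35871544), an ADP-ribosyltransferase gene, had a normalized coverage of 3.62, 2.80 and 3.10 in KSFM-Ca2+ replicates 1 to 3 and 0.321, 0.201 and 0.428 in DKSFM replicates 1 to 3. The DKSFM libraries were within 4 rounding steps of 0 and far below the others (log2 fold change -3.0, SE 0.23, limma adjusted p = 5.84e-06). With a pseudocount of 1 the log2 fold change of *Parp14* was -1.66. *Xaf1* (chromosome 11 from 72301629 to 72313733), which promotes cell death, had 2.39, 2.90 and 4.05 in the KSFM-Ca2+ libraries and 1.39, 1.11 and 1.5 in the DKSFM libraries. KSFM-Ca2+ replicate 3 was the highest, and the lines did not overlap (log2 fold change -1.14, SE 0.21, limma adjusted p = 0.00105). Without that library the log2 fold change of *Xaf1* was -0.94, under 2-fold, and with pseudocounts of 0.5 and 1 it was -0.96 and -0.80. *Ifi27* (chromosome 12 from 103434211 to 103440239) was the best covered of these genes, with 123, 123 and 144 in the KSFM-Ca2+ libraries and 138, 149 and 133 in the DKSFM libraries. These values overlapped (log2 fold change 0.11, 95% interval -0.05 to 0.27, limma adjusted p = 0.185). *Ifi35* and *Rtp4* did not pass the test (limma adjusted p = 0.43 and 0.127), and *Ifi44* was listed at 0.2, 0 and 0.1 in KSFM-Ca2+ and at 0 in all DKSFM libraries.

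Another 82 interferon genes outside the 39 were looked up, and 53 were tested. Of these, 15 were called lower and 3 higher in DKSFM, against 10.6% and 13.2% of all tested genes. The adjusted p was passed by 41 and 45 did not overlap, shares close to the 72.4% and 83.1% of all tested genes. They changed by a median of -0.38 on the log2 scale. Of the 15 called lower, 5 reached the minimum for testing in no DKSFM library and so had to differ. When every library had to reach it, 10 were called lower and 2 higher, against 967 and 1034 of the 11139 genes tested then. All 11 interferon ligand genes of that list (*Ifnb1*, *Ifna1*, *Ifna2*, *Ifna4*, *Ifna5*, *Ifnab*, *Ifnk*, *Ifne*, *Ifnl2*, *Ifnl3* and *Ifng*) were listed at 0 in all 6 libraries. A gene listed at 0 may lie under the rounding step, so this does not show that these transcripts were absent. The 3 receptor kinases changed little. *Jak1* had a normalized coverage of 51.5, 52 and 52.9 in KSFM-Ca2+ replicates 1 to 3 and 62.1, 58.6 and 61.4 in DKSFM replicates 1 to 3 (log2 fold change 0.22, SE 0.04, limma adjusted p = 5.78e-04). *Jak2* had 26, 27.3 and 26.9 in the KSFM-Ca2+ libraries and 21.7, 23.5 and 22.5 in the DKSFM libraries (-0.25, SE 0.05, limma adjusted p = 0.00153). *Tyk2* had 23.1, 24.3 and 25 against 20.8, 21.1 and 20.9 (-0.21, SE 0.05, limma adjusted p = 0.00384). The lines did not overlap in these 3 genes, and *Jak1* alone was higher in DKSFM. The adjusted p of *Tyk2* in limma was 0.0108 to 0.0171 when any library but KSFM-Ca2+ replicate 1 was left out, and 0.00252 to 0.0171 over 17 alternatives. In the 4 libraries marked as combined, with 1 for KSFM-Ca2+, the log2 fold changes of *Jak1* and *Jak2* were 0.20 and -0.25, close to those in all 6 libraries. Their limma adjusted p-values there, with the spread taken from the DKSFM libraries, were 0.02 and 0.0192, the highest over 17 alternatives, and the lowest were 4.76e-04 and 0.0012.

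**Figure D3:**
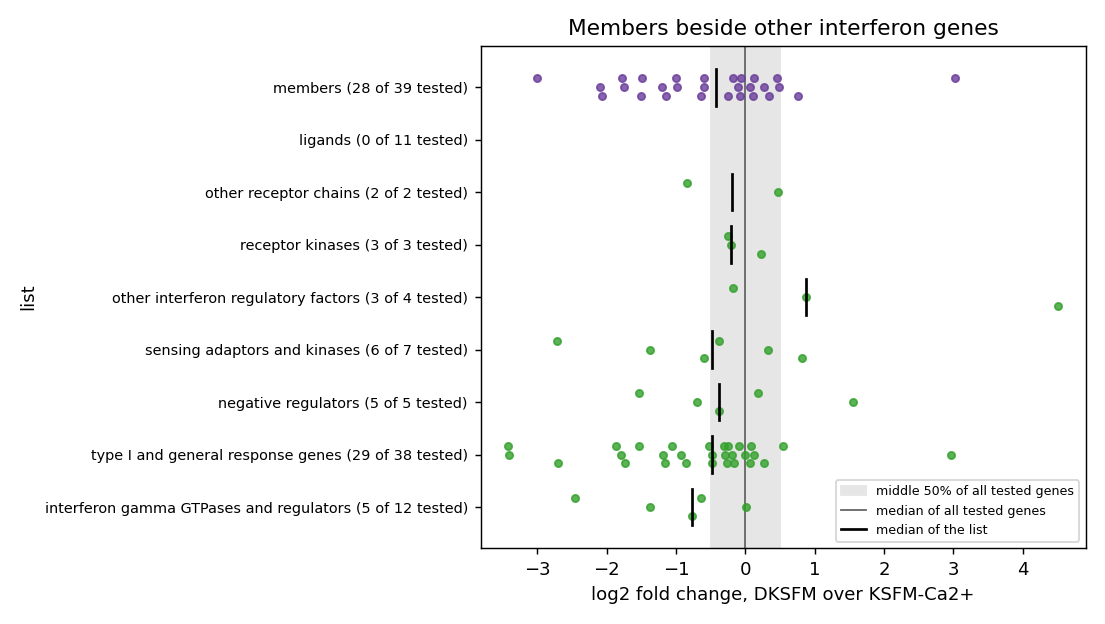
Log2 fold change of DKSFM over KSFM-Ca2+ (horizontal axis) for each tested gene of the 39 (purple) and of the 82 other interferon genes by role (green). Black ticks are list medians, the grey line and band the median and middle 50% of all tested genes. All list medians but that of the other interferon regulatory factors lie left of the grey line, and no ligand gene could be tested.

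*Irf5*, another interferon regulatory factor, was among the 3 other genes called higher, and was not tested when every library had to reach the minimum. Its normalized coverage was 0.154, 0.501 and 0.119 in KSFM-Ca2+ replicates 1 to 3 and 6.52, 6.15 and 9.42 in DKSFM replicates 1 to 3 (log2 fold change 4.51, SE 0.37, limma adjusted p = 8.58e-06). *Tmem140* had 2, 1.6 and 1.79 in the KSFM-Ca2+ libraries and 14.6, 14.5 and 15 in the DKSFM libraries (2.97, SE 0.10, limma adjusted p = 4.06e-08). *Socs3*, a feedback inhibitor of cytokine receptors, had 15.1, 15.3 and 13 against 40.1, 43.2 and 43.8 (1.55, SE 0.07, limma adjusted p = 2.84e-07). All DKSFM libraries were above all KSFM-Ca2+ libraries in these 3 genes, which were named because they were called higher, so this separation adds little. For *Irf5*, replicate 2, at 0.501, was the only KSFM-Ca2+ library to reach the minimum, so the filter favoured a higher level in DKSFM. The rule for named genes took *Trim30a*, *Slfn2*, *Ikbke* and *Nmi* among those called lower. *Trim30a* and *Slfn2* reached the minimum for testing only in KSFM-Ca2+, so they had to differ. *Ikbke*, a kinase that activates interferon regulatory factors, had 69.3, 75.5 and 76.4 in the KSFM-Ca2+ libraries and 11.5, 10.1 and 11.7 in the DKSFM libraries (-2.72, SE 0.07, limma adjusted p = 1.14e-08). *Nmi*, a binding partner of STAT proteins, had 35.1, 35 and 41.1 against 6.62, 4.73 and 5.57 (-2.70, SE 0.12, limma adjusted p = 2.34e-07). *Slfn2* had 4.54, 3.80 and 3.46 against 0.321, 0.302 and 0.214 (-3.41, SE 0.19, limma adjusted p = 7.07e-07). *Trim30a* was listed at 1.5, 1.3 and 1.1 in KSFM-Ca2+ and 0, 0.1 and 0 in DKSFM (-3.42, SE 0.34, limma adjusted p = 2.58e-05). With a pseudocount of 1 the log2 fold changes were 2.72 for *Irf5*, -1.94 for *Slfn2* and -1.13 for *Trim30a*. The lines did not overlap in these 4 lower genes.

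The keratinocyte markers had a higher summed coverage than the markers of any other cell type in each library. All 6 keratinocyte markers were tested, and their summed normalized coverage was 17789, 18256 and 17943 in KSFM-Ca2+ and 43362, 39578 and 43872 in DKSFM, most of it *Krt14*. This sum follows *Krt14* and *Krt5*, which were called higher in DKSFM. Of the 6 markers, 4 were higher and 2 lower past the adjusted p, the lower ones being *Itgb4* (log2 fold change -0.75, limma adjusted p = 4.29e-07) and *Cdh1* (-0.13, limma adjusted p = 0.00299). For *Cdh1* the paper reports the other direction, with expression by qPCR increased in the DKSFM cells. Of 10 haematopoietic markers, 1 was tested, and the sum was 1.23, 1.60 and 1.91 in KSFM-Ca2+ and 0.107, 0.403 and 0.107 in DKSFM. *Cd74* was the most abundant, listed at 1.6, 1.5 and 1.6 in KSFM-Ca2+ and at 0 in DKSFM, and is also induced by interferon gamma. It was called lower (log2 fold change -4.02, limma adjusted p = 2.32e-06), but reached the minimum for testing only in KSFM-Ca2+ and so had to differ. *Itgam*, *Csf1r* and *Laptm5* went the other way, at 0 in KSFM-Ca2+. *Itgam* was listed at 0.1 in DKSFM replicates 1 and 3, and *Csf1r* and *Laptm5* at 0.1 in DKSFM replicate 2. The defining genes *H2-Aa*, *Cd3e* and *Siglech* were at 0 everywhere, and *Ptprc* was listed at 0.1 in a single DKSFM library. Of 6 fibroblast markers, *Col1a1*, *Col1a2*, *Col3a1*, *Dcn* and *Lum* were at 0, so the sum of 1.15, 0.901 and 1.31 in KSFM-Ca2+ and 2.35, 2.12 and 2.25 in DKSFM was all *Pdgfra* (log2 fold change 0.95, limma adjusted p = 7.35e-04). Of 5 melanocyte markers, 1 was tested, *Dct* and *Tyr* were at 0, and the sum was 0.539, 0.901 and 0.715 in KSFM-Ca2+ and 0.321, 0.604 and 0.214 in DKSFM, mostly *Pmel*. Of 4 endothelial markers, 1 was tested, *Cdh5* was at 0, and the sum was 2.85, 3.20 and 3.34 in KSFM-Ca2+ and 8.33, 8.36 and 7.49 in DKSFM, mostly *Pecam1*, which was called higher in DKSFM (2.81 ± 0.257 against 7.64 ± 0.597, log2 fold change 1.41, limma adjusted p = 3.92e-06). Their part in the changes of the interferon genes was not tested.

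The medians of whole chromosomes differed between the lines, from -0.42 on chromosome 8 to 0.31 on chromosome 6 after the median of all tested genes was taken off. Each change was therefore set beside that of its neighbours. On that scale the median of tested genes within 10 Mb ran from -0.28 at *Ifitm3* to 0.39 at *Usp18*. It was 0.07 around *Parp14*, 0.17 around *Zbp1*, 0.09 around *Oas3*, -0.15 around *Irf1*, -0.23 around *Irf7* and -0.14 around *Xaf1*. *Irf1*, *Irf7* and *Xaf1* thus had the sign of their region, and the other 8 called genes had the opposite sign. Annotation puts another gene over part of *Irf1*, *Irf7*, *Irf9*, *Ifnar2*, *Usp18*, *Gbp2*, *Parp14* and *Rtp4*, among others, so their coverage may include reads of that gene. Strand was not considered in finding these overlaps. The libraries are strand-specific, so an overlap on the other strand may add no reads.

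**Figure D4:**
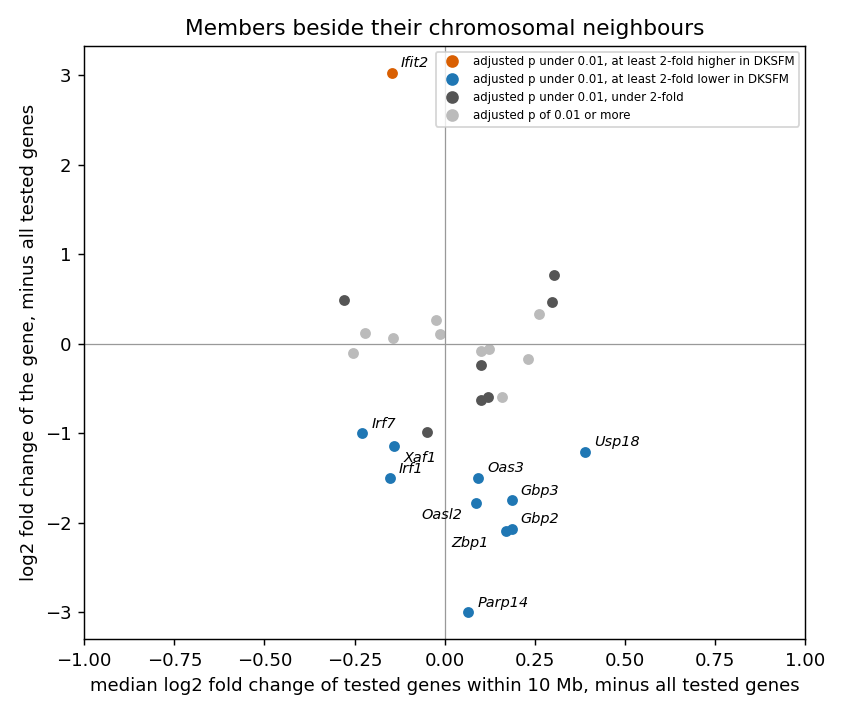
Log2 fold change of each of the 28 tested genes (vertical axis) against the median of tested genes within 10 Mb (horizontal axis), both DKSFM over KSFM-Ca2+ and minus the median of all tested genes. Named points are the 11 called genes, blue lower and orange higher in DKSFM. The neighbourhood medians lie between -0.28 and 0.39, while *Parp14* and *Ifit2* lie near -3 and 3.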

How the data were processed

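RNA-seq of 3 KSFM-Ca2+ and 3 DKSFM libraries was used, grouped and numbered by the sample labels. Per the authors, poly(A) RNA was made into strand-specific libraries and read from a single end (85 bases). The authors then used STAR on mm10, Salmon with RefSeq genes, and DESeq2 for their own comparison. The deposited values are a coverage signal, given for each gene as mean reads over its bases with 1 decimal and unscaled between libraries. The sources used here do not say how coverage was computed, nor what "combined" means, a word that marks KSFM-Ca2+ replicate 3 and every DKSFM library.

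Since coverage is not a count, no count model was fitted and limma took its place. Scaling used trimmed means of M values without weights (30% of M and 5% of A values trimmed, factors 0.99 to 1.01), to the arithmetic mean of the effective library totals. Genes that reached 0.5 after scaling in 3 or more libraries were kept, and log2(normalized coverage + 0.1) was fitted with an intensity trend and no covariate, with Benjamini-Hochberg adjustment over 12472 genes. The planned design did not set the level to scale to. The arithmetic mean was used first. After the results had been seen, the geometric mean was tried in order to match a number of tested genes known from earlier results of these data. That is no reason to prefer a scale, so the arithmetic mean was kept, and the geometric mean is reported as an alternative chosen after seeing the data. The procedure was tested on simulated data. Libraries correlated at 0.992 to 0.995 within lines and 0.851 to 0.859 between them, across genes.

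The members and gene lists were chosen with earlier results of these data known. Values of all 6 libraries are given for called members and the best covered member of each role, for all ligands and receptor kinases, and for up to 4 called genes in each direction among other interferon genes whose mean reached 1 in either line. Other members named with values, and *Ifitm2*, were picked after their values were seen. Alternatives were other scalings, filters, pseudocounts of 0.5 and 1, no trend, treat, an adjusted p of 0.05, a replicate block, each library left out, and the 4 libraries marked as combined. The files give no read counts, so no counting interval is given. The value of 1 marker gene is not reported here. Positions and transcript lengths came from GENCODE M21, which matched 151 of 152 listed genes, and promoter windows from RefSeq (GRCm38.p6), which matched 30 of 39 members. R 4.3.3, limma 3.58.1, Python 3.11.15, pandas 2.3.3 and matplotlib 3.10.9 were used.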

Additional observations from a re-analysis of the deposited data

How the results depend on the processing

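Over 18 alternatives, 14 of the 28 tested genes kept their direction and their call wherever they were tested. For treat only the call at 2-fold was compared, since its p-value is for a change of more than 2-fold. Of the others, 3 reversed, all of them genes that had not passed the test. With only the 4 libraries marked as combined, 1 KSFM-Ca2+ library was set against 3 DKSFM libraries and assumed to vary like them, and log2 fold changes were -0.011 for *Bst2*, -0.044 for *Ifi27* and -0.0076 for *Ifi35*, and *Ifi35* ran from -0.0097 without DKSFM replicate 2 to 0.11 without DKSFM replicate 1. The 10 genes called lower became 6 with a filter on every library, 5 with a pseudocount of 0.5, 5 with a pseudocount of 1 and 4 with treat, which tests against a 2-fold change itself. The filter on every library tests fewer genes, and *Zbp1*, *Oas3*, *Oasl2*, *Parp14* and *Ifit2* were not tested under it. For *Ifit2*, KSFM-Ca2+ replicate 3 had 0.477, and the count called higher was 0 there. The other interferon genes called lower fell from 15 to 8 with treat and to 10 with the filter on every library. With the combined libraries, 1 of them KSFM-Ca2+, a gene had to reach the minimum in a DKSFM library to be tested, and no count of called genes is given. The median log2 fold change of tested members was -0.21 with no filter, -0.17 with a filter on every library, -0.36 and -0.30 with pseudocounts of 0.5 and 1, and -0.12 with the combined libraries only, and ran from -0.58 to -0.32 with a library left out. Some of these medians are over other genes. With no filter 10 members were added, and the 28 had a median of -0.42. Leaving out a library also lowered the filter to 2 libraries, which added *Ifit1* when KSFM-Ca2+ replicate 3 or any DKSFM library was left out, and the median of the 28 ran from -0.44 to -0.32. The filter on every library left out 5 members, the libraries marked as combined left out 4 (*Zbp1*, *Oas3*, *Oasl2* and *Parp14*), and in all 6 libraries the remaining members had medians of -0.17 and -0.14. Over all 11139 genes tested with a filter on every library, 1034 were called higher, 967 were called lower and 8156 passed the adjusted p. Over all 12472 genes, treat called 1064 higher and 790 lower. With a pseudocount of 0.5, 1513 were called higher and 1217 lower, and with a pseudocount of 1, 1304 higher and 1030 lower. Leaving out a library gave 7 to 11 members called lower, the 7 without KSFM-Ca2+ replicate 3, and 17 to 19 past the adjusted p. Without KSFM-Ca2+ replicates 1 and 2, 1300 and 1295 of all genes tested were called lower. Of the members, 13 passed the adjusted p with the filter on every library.

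Scaling to the geometric mean of the totals, chosen after seeing the data, tested 12409 genes in place of 12472, with 1629 called higher and 1316 lower in place of 1645 and 1326. It called the same numbers of members, 1 higher, 10 lower and 18 past the adjusted p, with a median of -0.42. Same-numbered replicates did not deviate together (correlations -0.012, 0.026 and -0.015). With a replicate block, 10 members were called lower, 1 higher and 17 passed the adjusted p, with *Ifnar1* at 0.0124 by limma. The rounding step of 0.1 limits what can be seen of genes listed under 1.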
